A study of Homo sapiens with 24 samples.

Results

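The genes described here are 46 genes of NF-kappaB signalling and its inflammatory targets, out of 18889 genes in the deposited table. They were chosen by symbol, as the 5 subunits of the transcription factor, its inhibitors and feedback regulators, survival and adaptor genes, chemokines, cytokines, surface, protease and matrix genes, and other genes that TNF is known to induce, and all 46 were found in the table (IL8 is the older symbol of CXCL8). The choice was made with earlier results of these data known, so a share above that of all genes can follow from it. The study asked how hyperglycemia alters gene expression in estrogen receptor-positive (ER+) breast cancer cells. It sequenced RNA from 3 human breast carcinoma lines from the ATCC, HCC1500, MDA-MB-175 and ZR-75-30, after 48 hours in medium with 5 mM glucose (low glucose, the control condition) or 25 mM glucose (high glucose). All cells were kept in low glucose first and cultured in flasks without serum, and each of the 6 groups had 4 replicates, so 24 samples in all. Each line is a single line, and the labels do not say how separately the replicates were handled, so p-values measure the spread between these samples.

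NF-kappaB is a family of dimeric transcription factors that inhibitory IkappaB proteins hold in the cytoplasm. Signals from TNF, IL-1 or Toll-like receptors activate IkappaB kinase, the inhibitor is degraded, and the freed dimers enter the nucleus and switch on chemokine, cytokine, adhesion and survival genes. They also switch on their own inhibitors, among them NFKBIA and TNFAIP3, which is why these genes are commonly read as reporters of the pathway. In breast epithelium the pathway is known for its part in mammary development, and in breast cancer it is generally described as more active in ER-negative than in ER+ tumors.

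Promoter sequence was examined as a description of the genes. The RefSeq table (GRCh38.p14) held 39 of the 46 genes. NFKBIE, RELB, CCL2, LIF, CLCF1, CSF1 and IER3 were not in it and were not searched. For each gene that it held, the 250 bases before the start were searched on both strands. The motifs were the kappaB consensus GGGRNNYYCC, the DNA motif of NF-kappaB dimers, and the AP-1 element TGANTCA, the motif of Fos and Jun dimers. In these, R is A or G, Y is C or T, and N is any base. The kappaB consensus was present in 14 of the 39 genes (35.9%) and in 9.57% of all 27305 promoters, and the AP-1 element, which is its own reverse complement, in 4 of the 39 (10.3%) and in 6.6% of all promoters. The genes were chosen as members and targets of this pathway, so a larger share of kappaB matches than over all promoters can follow from that choice. The members with a kappaB match were TNFAIP3, NFKB1, NFKBIA, NFKBIZ, REL, BIRC3, CXCL1, CXCL2, CXCL3, CCL20, IL6, LTB, SDC4 and LAMB3, and those with an AP-1 match were IL8, IL1A, PLAUR and F3. Of the kappaB group, IL6 was tested for a glucose response in no line, and CXCL2, CXCL3 and LTB only in HCC1500. A match is a description of the letters in the window and not evidence of binding, and no match says only that these letters are absent from these 250 bases. The 6 promoters below run 5′ to 3′ on the strand of the gene, with matches in capitals. NFKBIA and BIRC3 are shown because they rose in every line, NFKB1 and TNFAIP2 because they moved in opposite directions between lines, and CXCL1 and IL8 because their levels separated the lines.
NFKBIA (chr14:35404750-35404999, minus strand, 1 kappaB match): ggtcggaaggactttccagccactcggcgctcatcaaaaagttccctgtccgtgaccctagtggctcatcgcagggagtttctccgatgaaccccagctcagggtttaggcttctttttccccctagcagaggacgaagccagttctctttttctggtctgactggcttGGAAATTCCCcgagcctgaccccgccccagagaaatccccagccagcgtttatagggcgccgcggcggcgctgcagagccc
BIRC3 (chr11:102317234-102317483, plus strand, 2 kappaB matches): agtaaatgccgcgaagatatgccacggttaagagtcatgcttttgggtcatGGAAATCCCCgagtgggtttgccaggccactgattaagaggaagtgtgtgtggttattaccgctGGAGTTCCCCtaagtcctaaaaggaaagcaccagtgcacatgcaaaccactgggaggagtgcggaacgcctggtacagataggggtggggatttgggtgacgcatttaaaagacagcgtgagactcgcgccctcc
NFKB1 (chr4:102501109-102501358, plus strand, 1 kappaB match): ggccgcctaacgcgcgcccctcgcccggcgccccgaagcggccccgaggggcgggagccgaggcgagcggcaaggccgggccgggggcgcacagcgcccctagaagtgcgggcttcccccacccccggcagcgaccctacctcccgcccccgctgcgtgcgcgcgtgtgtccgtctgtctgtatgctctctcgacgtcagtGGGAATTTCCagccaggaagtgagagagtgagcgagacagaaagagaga
TNFAIP2 (chr14:103123211-103123460, plus strand, no match): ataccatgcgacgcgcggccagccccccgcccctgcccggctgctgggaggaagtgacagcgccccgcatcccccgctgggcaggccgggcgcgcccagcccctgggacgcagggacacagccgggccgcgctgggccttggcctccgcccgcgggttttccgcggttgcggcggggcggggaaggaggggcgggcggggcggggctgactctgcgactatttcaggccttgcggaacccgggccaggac
CXCL1 (chr4:73869143-73869392, plus strand, 2 overlapping kappaB matches, 1 on each strand): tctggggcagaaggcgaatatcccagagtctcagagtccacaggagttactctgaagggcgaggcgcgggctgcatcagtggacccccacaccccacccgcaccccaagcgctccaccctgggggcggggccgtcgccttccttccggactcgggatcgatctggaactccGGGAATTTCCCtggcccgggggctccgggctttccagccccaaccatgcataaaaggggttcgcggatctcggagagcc
IL8 (chr4:73740319-73740568, plus strand, 1 AP-1 match and no kappaB match): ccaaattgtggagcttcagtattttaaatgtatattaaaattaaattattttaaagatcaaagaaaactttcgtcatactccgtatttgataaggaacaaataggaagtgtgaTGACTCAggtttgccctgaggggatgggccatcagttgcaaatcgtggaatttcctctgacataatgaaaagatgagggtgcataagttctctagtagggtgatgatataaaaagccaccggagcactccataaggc

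The values are normalized reads, that is, reads per gene divided by 1 factor per sample. The samples held between 9140024 and 17998819 reads, and 3 reads, taken as the detection floor, were worth between 0.953 and 2.29 normalized reads depending on the sample. In HCC1500 the depth ranges of the conditions did not overlap, low glucose samples having 13190982 to 17998819 reads and high glucose samples 9423472 to 12140912. TXNIP, a gene known to rise with glucose, was higher at high glucose in every line, by 2.03-fold in HCC1500, 1.70-fold in ZR-75-30 and 1.31-fold in MDA-MB-175. All 7 luminal epithelial markers were detected in each group (KRT8 averaged 22515 normalized reads in MDA-MB-175 and 18786 in ZR-75-30 at low glucose). Their summed level at low glucose was 47778 to 58041 normalized reads in MDA-MB-175 and 48985 to 53630 in ZR-75-30. It was lower in HCC1500, at 24219 to 25957, where KRT19 was the highest. Leukocyte markers were weak, and 4 of the 7 listed were in the table. Their summed level was 8.54 to 14.7 normalized reads in MDA-MB-175 at low and 12.1 to 18.3 at high glucose, and 0.554 to 2.29 and 0.850 to 3.65 in ZR-75-30. In HCC1500 it was 3.01 to 5.40 at low and 13.9 to 44.6 at high glucose, mostly from CD14, and the part of this difference in the HCC1500 results was not tested. Fibroblast markers, COL1A1 the highest, summed at low glucose to 115 to 139 normalized reads in MDA-MB-175. They summed to 101 to 117 in ZR-75-30 and 265 to 295 in HCC1500. Endothelial markers summed at low glucose to 75.3 to 91.7 in MDA-MB-175, 4.99 to 10.7 in ZR-75-30 and at most 1.53 in HCC1500. In bulk samples like these, fewer cells that express a gene and less of its RNA per cell cannot be told apart.

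The high glucose replicate 3 of HCC1500 stood apart from the other samples of its group. Of 12816 genes, 24.6% lay over 1 log2 unit away from the average of its group without it, against at most 1.40% in any other sample, and its Pearson correlation with that mean was 0.917. Its normalized values over all genes summed to 7319781, against 5559394 to 5604083 in the other high glucose samples of HCC1500. The members furthest below the other samples were REL, NFKBIZ and KLF6, whose summed exon lengths are long. F3, with a short summed exon length (2886 bases), came next at -0.41. EHD1 and TNIP1, also long, lay 0.76 and 0.78 above the other samples on the log2 scale. REL, the longest of those compared, measured 6.68 normalized reads there against 105 to 115 in the other high glucose samples, which is a deviation of -3.84 on the log2 scale, while NFKBIE lay 1.37 and TNIP2 1.20 above the others. BIRC3 deviated by -0.23, and BHLHE40 lay among the other samples. Spearman's rho between deviation and exon length was -0.48 over 32 members and -0.55 over 12521 genes, values that share 1 library and are given as a description. NFKB1, also among the longest, deviated by -0.14. SOD2, matched to the annotation by symbol and not by gene ID, was left out of the length comparison. Its replicate 3 value was 1.03 times the mean of the other high glucose samples. HCC1500 results are therefore given with all 4 high glucose samples and again without replicate 3.

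**Figure D1:**
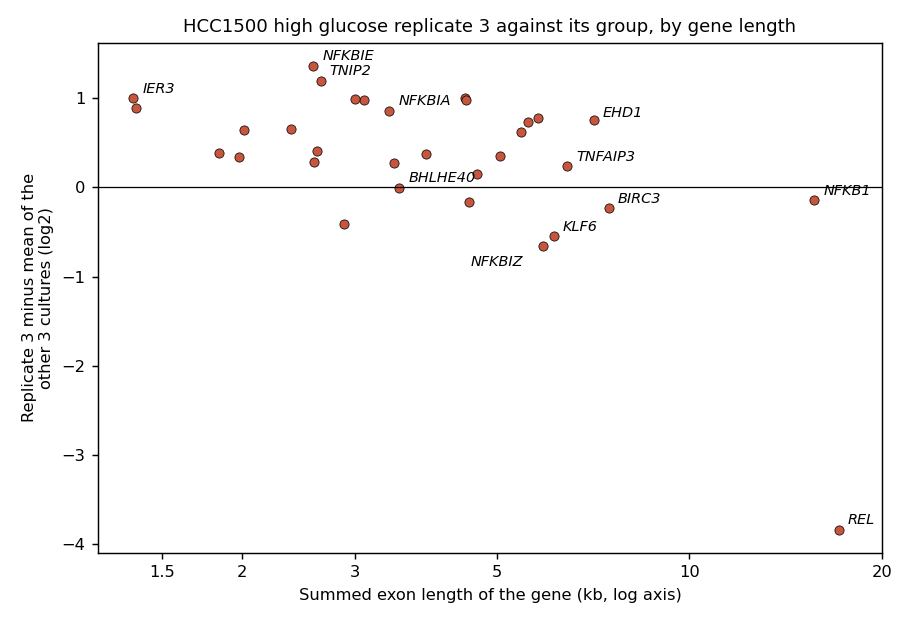
Deviation of HCC1500 high glucose replicate 3 from the mean of the other 3 high glucose samples (log2, y axis) against the summed exon length of each compared member (kb, log axis), 1 point per gene. REL sits far below the rest at -3.84, and NFKBIE is the highest at 1.37.

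Within every line more members rose than fell at high glucose. Because the members were chosen with earlier results of these data known, the counts cannot show an excess over all genes. For MDA-MB-175, 17 of 37 tested members rose and 2 fell (limma, adjusted p under 0.05), where 11.9% of all genes rose and 13.7% fell. In ZR-75-30, 16 of 34 rose and 3 fell, against 23.4% and 22.7% of all genes. In HCC1500, 9 of 41 rose and 2 fell, against 7.46% and 13% of all genes, and without replicate 3 the counts were 16 and 4, against 20.9% and 37.7% of all genes. The median log2 change of the tested members was 0.34 (MDA-MB-175), 0.30 (ZR-75-30) and 0.20 (HCC1500, or 0.16 without replicate 3), beside -0.02, 0.01, -0.06 and -0.12 over all genes tested. A gene entered the test with a value of at least 0.5 in 4 samples of the line, so a gene seen in 1 condition only could enter through that condition, and the counts cover only members that entered. The filter removed 5 members for HCC1500, 9 for MDA-MB-175 and 12 for ZR-75-30, and IL6, IL1A, IL1B, PTGS2 and G0S2 were untested in every line. G0S2 and IL1B had 0 reads in all 24 samples, which allows up to 3 reads in each.

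**Figure D2:**
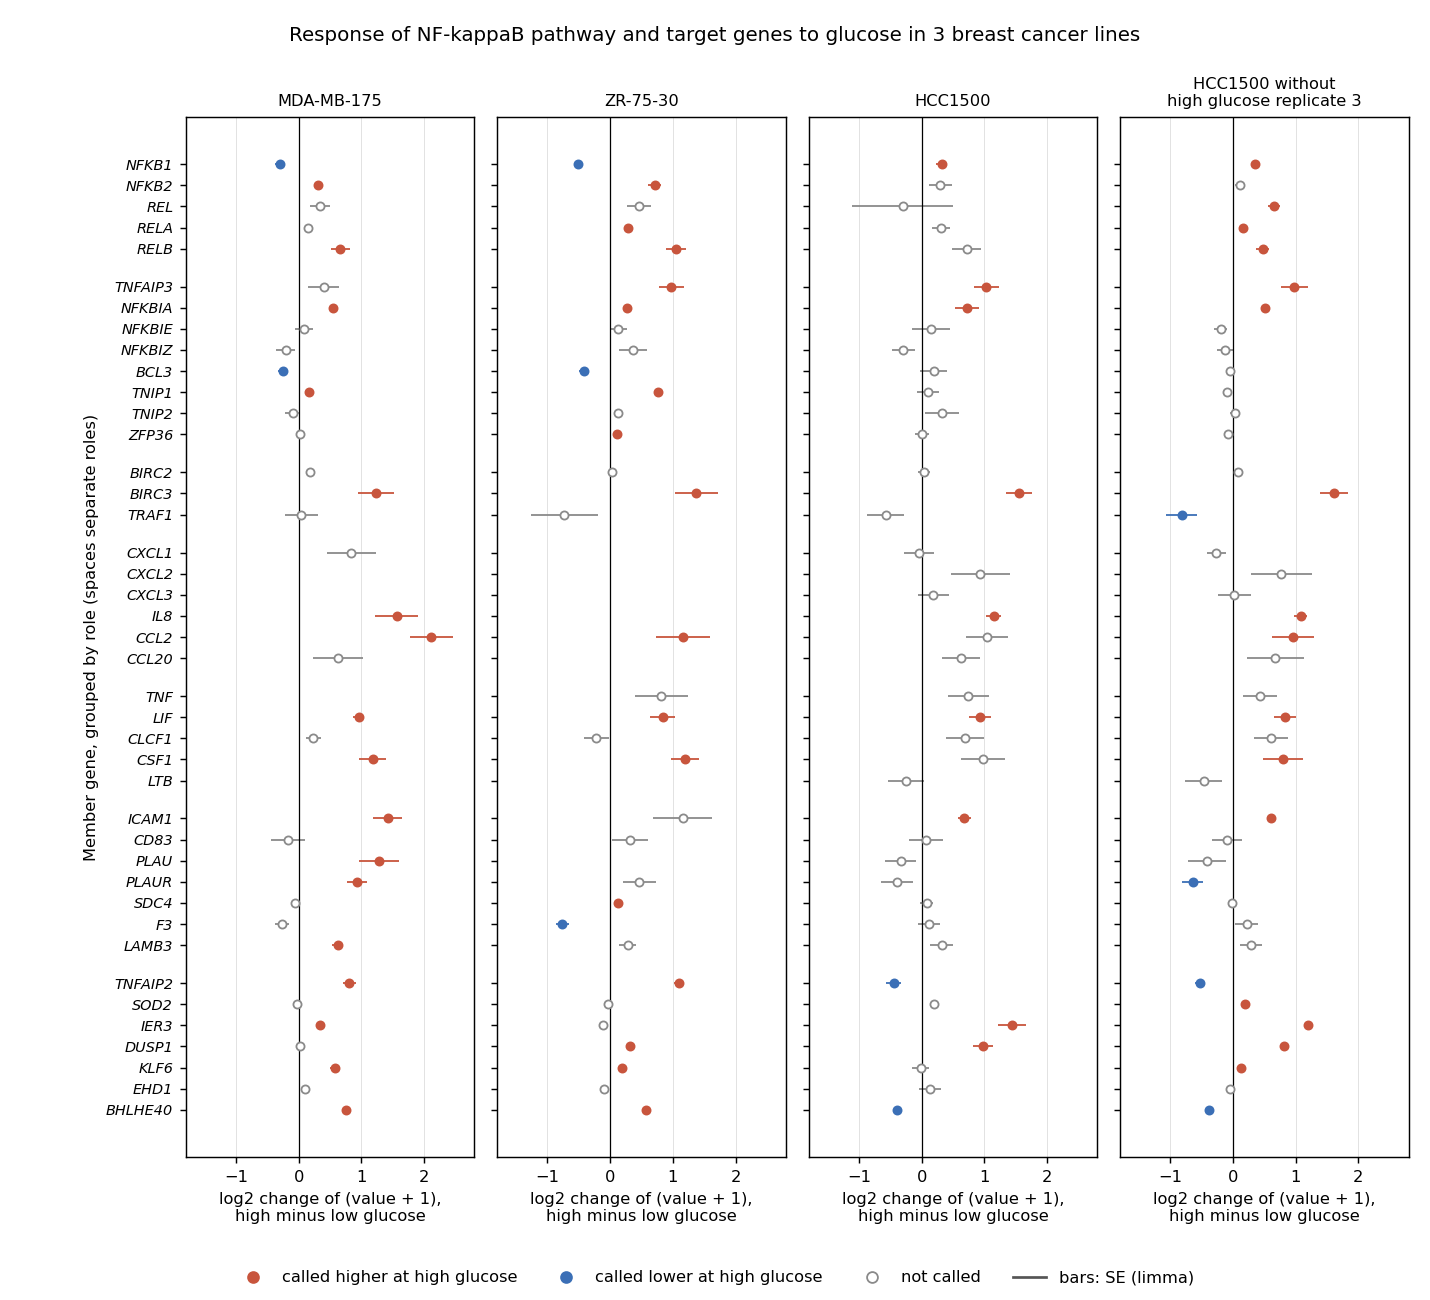
Log2 change (high minus low glucose, x axis) of each tested member, 1 row per gene grouped by role, in each line and in HCC1500 without replicate 3. Points are limma estimates with SE bars, and filled points passed the test; most filled points lie to the right of 0, with BIRC3 at 1.23, 1.37 and 1.55 in the 3 lines and TNFAIP2 and BHLHE40 left of 0 in HCC1500 only.

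Among the subunits, RELB and NFKB2 rose in ZR-75-30 and MDA-MB-175, whereas NFKB1 fell in both of them and rose in HCC1500. RELB encodes the dimer partner of the alternative pathway and NFKB2 the precursor of its DNA-binding partner. RELB in MDA-MB-175 measured 28.1, 25.5, 19.9 and 19.8 normalized reads at low glucose and 38.7, 38.6, 33.6 and 37.9 at high glucose, with a log2 change of 0.66 (SE 0.15, adjusted p = 0.0042). RELB in ZR-75-30 measured 18.8, 15.9, 19.9 and 16.8 normalized reads at low glucose and 35.9, 37.8, 39.5 and 38.4 at high glucose, with a log2 change of 1.05 (SE 0.16, adjusted p = 2.8e-05). In both lines every high glucose sample lay above every low glucose sample. RELB in HCC1500 measured 50.2, 49.5, 42.9 and 51.7 normalized reads at low glucose and 72.6, 61.7, 135 and 68.8 at high glucose, also with no overlap, and a log2 change of 0.72 (SE 0.23, adjusted p = 0.0621) that did not pass the test. Replicate 3 held the highest of those values, and without it the line had a log2 change of 0.47 (SE 0.11, adjusted p = 0.00117). NFKB2 rose from 219 ± 12.8 to 270.4 ± 20.8 normalized reads in MDA-MB-175 (mean ± SD, n = 4) and from 94.6 ± 5.8 to 157 ± 25.6 in ZR-75-30, where the log2 change of 0.71 (SE 0.10, adjusted p = 1.74e-05) was the larger. In HCC1500 NFKB2 went from 113 ± 8.12 to 144 ± 42.1, the ranges overlapped, and it passed the test neither with nor without replicate 3.

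NFKB1 encodes the precursor of the classical DNA-binding subunit and was the only subunit called in opposite directions. NFKB1 in MDA-MB-175 measured 299, 295, 271 and 292 normalized reads at low glucose and 229, 236, 209 and 266 at high glucose, with a log2 change of -0.30 (SE 0.07, adjusted p = 0.00405). NFKB1 in ZR-75-30 measured 312, 306, 306 and 322 normalized reads at low glucose and 233, 205, 235 and 206 at high glucose, with a log2 change of -0.51 (SE 0.06, adjusted p = 1.38e-06). NFKB1 in HCC1500 measured 228, 210.0, 193 and 193 normalized reads at low glucose and 270.2, 258, 238 and 263 at high glucose, with a log2 change of 0.32 (SE 0.09, adjusted p = 0.0378). The conditions did not overlap in any line, and the samples of HCC1500 went the other way from those of MDA-MB-175 and ZR-75-30. The HCC1500 rise had an adjusted p of 6.11e-05 without replicate 3, and it was lost at adjusted p values between 0.0829 and 0.120 when low glucose replicate 2, 3 or 4 or high glucose replicate 1, 2 or 4 was left out.

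RELA, the main transactivating subunit of the classical pathway, passed the test in ZR-75-30 alone of the 3 full comparisons. RELA in ZR-75-30 measured 534, 561, 582 and 537 normalized reads at low glucose and 665, 694, 685 and 644 at high glucose, with a log2 change of 0.28 (SE 0.04, adjusted p = 3.69e-05) and no overlap. In MDA-MB-175 RELA went from 531 ± 62.7 to 586 ± 28.8 normalized reads with overlapping ranges and an adjusted p of 0.143 (0.0439 without low glucose replicate 1). RELA in HCC1500 measured 542, 569, 581 and 567 normalized reads at low glucose and 624, 649, 969 and 614 at high glucose, with a log2 change of 0.31 (SE 0.15, adjusted p = 0.172), and without replicate 3, its highest sample, a log2 change of 0.16 (SE 0.04, adjusted p = 0.00147). REL, a subunit best known from lymphoid cells, did not pass the test in MDA-MB-175 or ZR-75-30 (adjusted p = 0.135 and 0.065), although in ZR-75-30 it had an adjusted p of 0.0204 without low glucose replicate 1. REL in HCC1500 measured 66.9, 76.5, 72.1 and 61.1 normalized reads at low glucose and 108, 115, 6.68 and 105 at high glucose, so replicate 3 sat below every other sample and the remaining high glucose samples above all low glucose samples. Its log2 change was -0.30 (SE 0.81) with replicate 3 and 0.66 (SE 0.09, adjusted p = 6.51e-06) without it. REL shares 5702 exon bases with another gene on the same strand, so its reads could be split between the 2.

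The inhibitors and feedback regulators showed the rise of NFKBIA in every line and of TNFAIP3 in 2 lines, and a fall of BCL3 in 2 lines. NFKBIA (ENSG00000100906, chr14:35870285-35873955 in GRCh37, minus strand) encodes IkappaB alpha, the inhibitor that is resynthesized after each round of activation, and its promoter is shown above. NFKBIA in MDA-MB-175 measured 548, 521, 539 and 459 normalized reads at low glucose and 801, 755, 717 and 729 at high glucose, with a log2 change of 0.54 (SE 0.06, adjusted p = 3.61e-06). NFKBIA in ZR-75-30 measured 239, 218, 219 and 229 normalized reads at low glucose and 276, 263, 272 and 278 at high glucose, with a log2 change of 0.27 (SE 0.05, adjusted p = 0.000597). NFKBIA in HCC1500 measured 662, 693, 657 and 708 normalized reads at low glucose and 988, 922, 1761 and 992 at high glucose, with a log2 change of 0.72 (SE 0.19, adjusted p = 0.0292). The conditions did not overlap in any line, and in HCC1500 replicate 3 was far above the other high glucose samples. Without replicate 3 the HCC1500 samples gave a log2 change of 0.51 (SE 0.04, adjusted p = 1.99e-09). Leaving out any 1 of the 4 low glucose samples instead gave adjusted p values between 0.0708 and 0.0804, above the threshold of 0.05.

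TNFAIP3 encodes a ubiquitin-editing enzyme that shuts the pathway off upstream of IkappaB kinase. TNFAIP3 in ZR-75-30 measured 17.2, 11.4, 21.1 and 20.6 normalized reads at low glucose and 35.9, 28.4, 38.7 and 36.3 at high glucose, with a log2 change of 0.98 (SE 0.20, adjusted p = 0.000614). TNFAIP3 in HCC1500 measured 13.3, 14.0, 8.44 and 9.04 normalized reads at low glucose and 22.4, 24.9, 26.7 and 20.3 at high glucose, with a log2 change of 1.04 (SE 0.20, adjusted p = 0.00834), and without replicate 3 a log2 change of 0.97 (SE 0.21, adjusted p = 0.000728). In these lines every high glucose sample exceeded every low glucose sample. TNFAIP3 in MDA-MB-175 measured 6.02, 6.7, 5.12 and 8.65 normalized reads at low glucose and 12.1, 9.09, 8.98 and 6.31 at high glucose, which overlapped, and the log2 change of 0.40 (SE 0.25, adjusted p = 0.281) did not pass. The test between lines found no difference of the TNFAIP3 response (adjusted p = 0.195).

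BCL3, an atypical IkappaB protein that acts in the nucleus as a coactivator, fell in ZR-75-30, where it measured 138, 123, 146 and 134 normalized reads at low glucose and 102, 101, 90.9 and 112 at high glucose without overlap and with a log2 change of -0.42 (SE 0.09, adjusted p = 0.000558). In MDA-MB-175 BCL3 measured 297, 299, 284 and 233 normalized reads at low glucose and 258, 235, 232 and 208 at high glucose, with overlapping ranges and a log2 change of -0.25 (SE 0.08, adjusted p = 0.0337). That call was lost, at adjusted p values between 0.0664 and 0.117, without low glucose replicate 1, 2 or 3 or high glucose replicate 2, 3 or 4. In HCC1500 BCL3 did not pass the test (adjusted p = 0.586, or 0.324 without replicate 3), with 336 to 344 normalized reads at low glucose, 316 to 344 in 3 high glucose samples and 647 in replicate 3. TNIP1, which binds the TNFAIP3 protein and helps it limit signalling, rose most in ZR-75-30, from 553 ± 23.5 to 938 ± 22.3 normalized reads with a log2 change of 0.76 (SE 0.04, adjusted p = 6.66e-11) and no overlap. TNIP1 in MDA-MB-175 went from 331 ± 24.7 to 372 ± 12.9 with an adjusted p of 0.0474, and this call was lost at adjusted p values between 0.0635 and 0.119 without low glucose replicate 2, 3 or 4 or high glucose replicate 1, 2 or 4. ZFP36, whose protein destabilizes cytokine mRNAs, rose in ZR-75-30 from 641 ± 6.9 to 691 ± 31.0, a log2 change of 0.11 (SE 0.04, adjusted p = 0.0439) that was lost (adjusted p between 0.0609 and 0.144) without any 1 of the low glucose samples or without high glucose replicate 2 or 3. NFKBIE and NFKBIZ, an inhibitor and a nuclear cofactor of the IkappaB family, and TNIP2, a relative of TNIP1, passed the test in no line, with log2 changes between -0.29 and 0.36.

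BIRC3, an inhibitor of apoptosis that ubiquitinates adaptors at TNF receptors, rose in every line. The gene (ENSG00000023445, chr11:102188215-102210134 in GRCh37, plus strand) has 2 kappaB matches in the promoter printed above. BIRC3 in MDA-MB-175 measured 2.01, 4.02, 3.99 and 4.58 normalized reads at low glucose and 8.74, 11.4, 12.5 and 6.83 at high glucose, with a log2 change of 1.23 (SE 0.28, adjusted p = 0.00402). BIRC3 in ZR-75-30 measured 1.66, 0.569, 1.14 and 0.763 normalized reads at low glucose and 4.17, 3.38, 3.4 and 6.17 at high glucose, with a log2 change of 1.37 (SE 0.35, adjusted p = 0.00319). BIRC3 in HCC1500 measured 6.46, 8.26, 9.97 and 6.46 normalized reads at low glucose and 31.3, 25.4, 21.5 and 20.8 at high glucose, with a log2 change of 1.55 (SE 0.21, adjusted p = 0.00128), and log2 change of 1.61 (SE 0.22, adjusted p = 5.55e-06) without replicate 3. Low and high glucose samples did not overlap in any line, but several ZR-75-30 values at low glucose lay under the floor of 3 reads. BIRC2, the close relative of BIRC3 and its neighbor on chromosome 11, passed the test in no line. Its means were 169.7 ± 11.5 and 193 ± 9.3 normalized reads at low and high glucose in MDA-MB-175 (adjusted p = 0.0544, and 0.0379 and 0.0495 without low glucose replicate 2 or 4), 296 ± 21.9 and 305 ± 23.5 in HCC1500, and 160.0 ± 8.43 and 164 ± 11.4 in ZR-75-30. TRAF1, an adaptor of TNF receptors, passed only in HCC1500 without replicate 3, where it fell from 12.1 ± 3.23 to 6.29 normalized reads, with a log2 change of -0.82 (SE 0.25, adjusted p = 0.00874).

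Of the 6 chemokine genes, IL8 and CCL2 rose in MDA-MB-175, CCL2 rose in ZR-75-30 and IL8 rose in HCC1500. IL8 encodes a neutrophil attractant. IL8 in HCC1500 measured 48.3, 49.9, 47.9 and 43.5 normalized reads at low glucose and 106, 105, 123 and 92.3 at high glucose, with a log2 change of 1.15 (SE 0.12, adjusted p = 0.000389) and log2 change of 1.08 (SE 0.10, adjusted p = 2.94e-08) without replicate 3. IL8 in MDA-MB-175 measured 2.81, 4.02, 0.569 and 2.03 normalized reads at low glucose and 7.07, 8.52, 10.5 and 6.83 at high glucose, with a log2 change of 1.56 (SE 0.34, adjusted p = 0.00288). In both lines all high glucose samples were above all low glucose samples. IL8 in ZR-75-30 had no read at low glucose and 0.521, 0, 0.425 and 1.37 normalized reads at high glucose, all below the floor, so it was not tested.

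CCL2 encodes a chemokine that attracts monocytes. CCL2 in MDA-MB-175 measured 0.803, 0.67, 2.85 and 0.509 normalized reads at low glucose and 9.15, 9.09, 8.59 and 5.26 at high glucose, with a log2 change of 2.11 (SE 0.34, adjusted p = 0.000242) and no overlap. In ZR-75-30 CCL2 measured 0.554, 0, 0 and 0.763 normalized reads at low glucose and 1.56, 0.675, 2.12 and 4.11 at high glucose, with overlap and a log2 change of 1.16 (SE 0.43, adjusted p = 0.0342). It rested on 2 reads at low and 15 at high glucose, a depth-corrected ratio of 6.89 (95% interval 1.60 to 62.1, counting error only), and the call was lost at adjusted p values between 0.0566 and 0.137 without low glucose replicate 2 or 3 or high glucose replicate 1, 3 or 4. CCL2 in HCC1500 measured 5.32, 1.91, 3.07 and 6.46 normalized reads at low glucose and 7.08, 7.46, 11.1 and 11.1 at high glucose, with no overlap and a log2 change of 1.04 (SE 0.33, adjusted p = 0.0563). Without replicate 3 it had a log2 change of 0.95 (SE 0.33, adjusted p = 0.0213), and without low glucose replicate 4 an adjusted p of 0.0468.

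CXCL1, CXCL2 and CXCL3 encode close relatives that attract neutrophils, and reads could be shared between these similar genes. CXCL1 in HCC1500 measured 36.5, 38.8, 38.3 and 36.6 normalized reads at low glucose and 27.7, 26.9, 58.7 and 40.2 at high glucose, with overlap and a log2 change of -0.04 (SE 0.24, adjusted p = 0.928). CXCL1 in MDA-MB-175 was near the floor, with 0, 0, 0.569 and 0 normalized reads at low and 0.832, 0.568, 1.17 and 1.58 at high glucose and a log2 change of 0.84 (SE 0.39, adjusted p = 0.13). In ZR-75-30 a single read was seen over 8 samples. CXCL2 and CXCL3 were tested only in HCC1500, where their means went from 0.889 ± 0.859 to 2.62 ± 1.47 and from 6.19 ± 0.797 to 7.39 ± 2.44 normalized reads, neither of which passed. CCL20, an attractant of lymphocytes and dendritic cells, did not exceed 1.56 normalized reads in any sample.

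**Figure D3:**
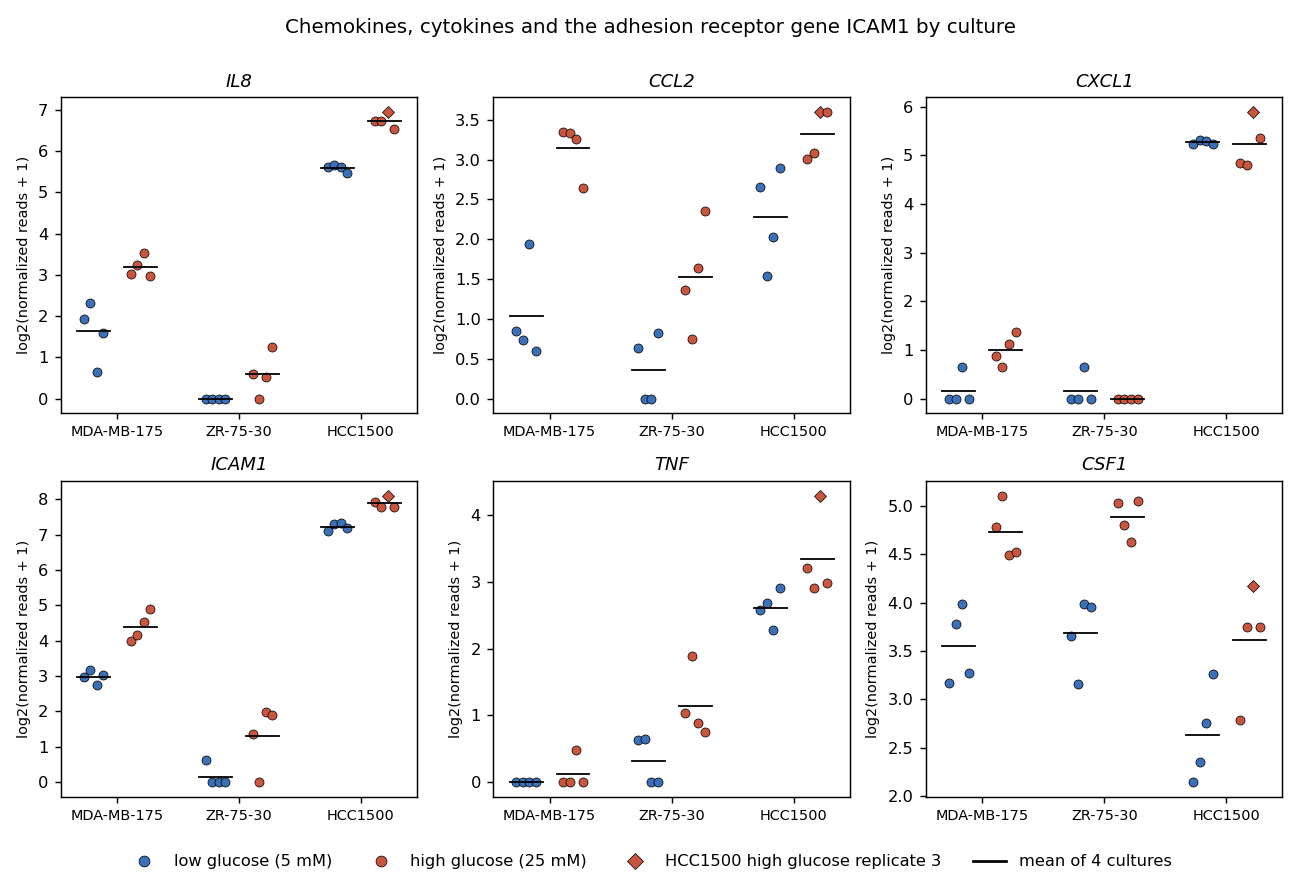
Log2(normalized reads + 1) of IL8, CCL2, CXCL1, ICAM1, TNF and CSF1 in each sample (points), with the mean of 4 samples as a bar, at low and high glucose in each line; a diamond marks HCC1500 high glucose replicate 3. IL8 and ICAM1 sit highest in HCC1500 and rise there and in MDA-MB-175. Outside HCC1500, CXCL1 and TNF are low, reaching at most 1.58 and 2.70 normalized reads.

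Of the cytokine genes, LIF rose in every line and CSF1 in 2 lines, and TNF passed the test in none. LIF (ENSG00000128342, chr22:30636442-30642748 in GRCh37, minus strand) encodes a cytokine of the IL-6 family. LIF in MDA-MB-175 measured 107, 90.5, 87.7 and 76.3 normalized reads at low glucose and 171, 170.4, 183 and 177 at high glucose, with a log2 change of 0.96 (SE 0.09, adjusted p = 1.14e-06). LIF in ZR-75-30 measured 22.2, 22.2, 21.6 and 11.5 normalized reads at low glucose and 35.9, 35.1, 31.0 and 35.0 at high glucose, with a log2 change of 0.84 (SE 0.20, adjusted p = 0.00245). LIF in HCC1500 measured 15.6, 13.0, 17.3 and 13.8 normalized reads at low glucose and 23.6, 27.9, 35.6 and 30.5 at high glucose, with a log2 change of 0.93 (SE 0.17, adjusted p = 0.00652), and log2 change of 0.83 (SE 0.18, adjusted p = 0.000578) without replicate 3. The conditions were separate in all lines, and the 3 changes lay within 0.12 of each other on the log2 scale (test between lines, adjusted p = 0.920). LIF shares 169 exon bases with opposite-strand genes, and whether strand was used in counting is not given in the sources used here.

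CSF1 encodes the growth factor of macrophages. CSF1 in MDA-MB-175 measured 8.03, 12.7, 14.8 and 8.65 normalized reads at low glucose and 26.6, 33.5, 21.5 and 22.1 at high glucose, with a log2 change of 1.18 (SE 0.22, adjusted p = 0.000876). CSF1 in ZR-75-30 measured 11.6, 7.96, 14.8 and 14.5 normalized reads at low glucose and 31.8, 27.0, 23.8 and 32.2 at high glucose, with a log2 change of 1.19 (SE 0.22, adjusted p = 0.000182). Neither line had overlapping samples. CSF1 in HCC1500 measured 3.42, 4.13, 5.75 and 8.61 normalized reads at low glucose and 5.9, 12.4, 17.1 and 12.5 at high glucose, with overlap and a log2 change of 0.98 (SE 0.35, adjusted p = 0.0839). It had a log2 change of 0.80 (SE 0.32, adjusted p = 0.0408) without replicate 3, and an adjusted p of 0.0306 without high glucose replicate 1. CLCF1, another member of the IL-6 family, passed the test in no line (log2 changes 0.23, -0.22 and 0.70).

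TNF itself, the ligand that gives several of these genes their name, was seen mainly in HCC1500. TNF in HCC1500 measured 4.94, 5.4, 3.83 and 6.46 normalized reads at low glucose and 8.26, 6.47, 18.6 and 6.92 at high glucose. The groups did not overlap, by a small margin, and replicate 3 was the highest sample. The log2 change of 0.74 (SE 0.33, adjusted p = 0.15) did not pass, and without replicate 3 it was a log2 change of 0.43 (SE 0.27, adjusted p = 0.186). TNF in ZR-75-30 measured 0.554, 0.569, 0 and 0 normalized reads at low glucose and 1.04, 2.7, 0.85 and 0.685 at high glucose, mostly under the floor, with a log2 change of 0.82 (SE 0.42, adjusted p = 0.122), and in MDA-MB-175 1 sample of 8 had a read. LTB, a membrane-bound relative of TNF, had 5.44 ± 1.26 normalized reads at low and 4.56 ± 1.97 at high glucose in HCC1500 (adjusted p = 0.591) and no read at low glucose in the other two. IL6, IL1A and IL1B, classical inflammatory cytokines, reached at most 1.56, 1.05 and 0 normalized reads in any sample and passed the filter in no line.

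Of the surface, protease and matrix genes, ICAM1, PLAU, PLAUR and LAMB3 rose in MDA-MB-175, ICAM1 in HCC1500 and SDC4 in ZR-75-30, where F3 fell. The responses of ICAM1 and LAMB3 did not pass the test between lines (adjusted p = 0.388 and 0.284), and those of PLAU and PLAUR did (0.0246 and 0.00651). ICAM1 encodes the adhesion molecule that leukocytes bind. ICAM1 in MDA-MB-175 measured 6.82, 8.04, 5.69 and 7.12 normalized reads at low glucose and 15.0, 17.0, 21.9 and 28.9 at high glucose, with a log2 change of 1.42 (SE 0.23, adjusted p = 0.000219). ICAM1 in HCC1500 measured 136, 155, 158 and 144 normalized reads at low glucose and 242, 218, 274 and 220.2 at high glucose, with a log2 change of 0.68 (SE 0.10, adjusted p = 0.00271), and log2 change of 0.61 (SE 0.07, adjusted p = 2.67e-07) without replicate 3. In both lines no sample of one condition reached the range of the other. ICAM1 in ZR-75-30 had 1 read at low and 14 at high glucose, a depth-corrected ratio of 12.9 (95% interval 1.96 to 544, counting error only), and its log2 change of 1.15 (SE 0.47, adjusted p = 0.0533) did not pass (adjusted p = 0.00762 without high glucose replicate 2). ICAM1 shares 876 exon bases with opposite-strand genes.

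PLAU, the urokinase protease, and PLAUR, its receptor, both rose in MDA-MB-175. PLAU in MDA-MB-175 measured 3.61, 1.34, 3.99 and 4.07 normalized reads at low glucose and 12.1, 5.11, 10.9 and 8.94 at high glucose, with a log2 change of 1.28 (SE 0.32, adjusted p = 0.00806). PLAUR in MDA-MB-175 rose from 13.8 ± 1.5 normalized reads at low glucose (mean ± SD, n = 4) to 26.2, 29.0, 28.5 and 24.7 in the high glucose samples, with a log2 change of 0.93 (SE 0.16, adjusted p = 0.000507). Neither gene overlapped between conditions. In HCC1500 PLAU had a log2 change of -0.34 (SE 0.25, adjusted p = 0.397) and PLAUR of -0.39 (SE 0.26, adjusted p = 0.337), and without replicate 3 PLAUR fell with a log2 change of -0.64 (SE 0.17, adjusted p = 0.00279). PLAU shares 915 exon bases with an opposite-strand gene. LAMB3, a chain of the basement membrane protein laminin, measured 144, 153, 165 and 124 normalized reads at low glucose and 218, 251, 222 and 210.3 at high glucose in MDA-MB-175, with a log2 change of 0.62 (SE 0.09, adjusted p = 5.11e-05) and no overlap. In ZR-75-30 LAMB3 had an adjusted p of 0.0898 (0.0443 without low glucose replicate 1), and in HCC1500 of 0.257.

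F3, tissue factor, was the member that fell furthest in ZR-75-30. F3 in ZR-75-30 measured 92.0, 90.4, 99.7 and 119.9 normalized reads at low glucose and 55.2, 61.4, 59.1 and 58.3 at high glucose, with a log2 change of -0.76 (SE 0.11, adjusted p = 9.92e-06) and all high glucose samples below all low glucose samples. F3 in MDA-MB-175 measured 60.2, 69.0, 51.8 and 56.0 normalized reads at low glucose and 48.3, 48.8, 49.6 and 47.8 at high glucose, also without overlap, and its log2 change of -0.27 (SE 0.11, adjusted p = 0.0907) did not pass. In HCC1500 the log2 change of F3 was 0.12 (SE 0.18, adjusted p = 0.695). SDC4, a heparan sulfate proteoglycan of the cell surface, rose slightly in ZR-75-30, from 739 ± 46.7 to 809 ± 42.3 normalized reads with overlapping ranges. Its log2 change of 0.13 (SE 0.05, adjusted p = 0.0394) was lost at adjusted p values between 0.0775 and 0.137 without low glucose replicate 1 or 4 or high glucose replicate 1 or 2. CD83, a surface marker of activated dendritic and B cells, passed in no line.

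Among the other induced genes, TNFAIP2 and BHLHE40 rose in ZR-75-30 and MDA-MB-175 but fell in HCC1500. TNFAIP2 (ENSG00000185215, chr14:103587813-103603776 in GRCh37, plus strand) encodes a protein linked to membrane protrusions and was first known as a TNF-induced transcript. TNFAIP2 in MDA-MB-175 measured 79.9, 65.0, 82.0 and 68.7 normalized reads at low glucose and 125, 143, 113 and 139.8 at high glucose, with a log2 change of 0.81 (SE 0.10, adjusted p = 2.08e-05). TNFAIP2 in ZR-75-30 measured 111, 97.8, 104 and 90.9 normalized reads at low glucose and 208, 215, 213 and 228 at high glucose, with a log2 change of 1.10 (SE 0.08, adjusted p = 1.16e-09). TNFAIP2 in HCC1500 measured 159, 159, 147 and 166 normalized reads at low glucose and 114, 98.0, 139 and 114 at high glucose, with a log2 change of -0.44 (SE 0.12, adjusted p = 0.0301). No line had overlapping conditions, and the order of the conditions in HCC1500 was the reverse of that in the other two. Replicate 3 was the highest of the HCC1500 high glucose samples, and without it the line gave a log2 change of -0.53 (SE 0.07, adjusted p = 6.06e-06). Leaving out any other single HCC1500 sample gave adjusted p values between 0.0610 and 0.0941, above the threshold. The promoter of TNFAIP2 above held neither motif.

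BHLHE40 (ENSG00000134107, chr3:5021122-5027008 in GRCh37, plus strand) encodes a transcriptional repressor that responds to hypoxia and the circadian clock as well as to inflammatory signals. BHLHE40 in MDA-MB-175 measured 161, 143, 159 and 147 normalized reads at low glucose and 263, 259.6, 255 and 249 at high glucose, with a log2 change of 0.75 (SE 0.06, adjusted p = 2.1e-07). BHLHE40 in ZR-75-30 measured 476, 499, 467 and 508 normalized reads at low glucose and 708, 734, 756 and 696 at high glucose, with a log2 change of 0.57 (SE 0.04, adjusted p = 6.35e-09). BHLHE40 in HCC1500 measured 1668, 1718, 1642 and 1719 normalized reads at low glucose and 1313, 1265, 1287 and 1283 at high glucose, with a log2 change of -0.39 (SE 0.06, adjusted p = 0.00367). The conditions were separate in every line, and here replicate 3 lay among the other high glucose samples, with an adjusted p of 1.80e-09 without it. BHLHE40 shares 451 exon bases with an opposite-strand gene.

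**Figure D4:**
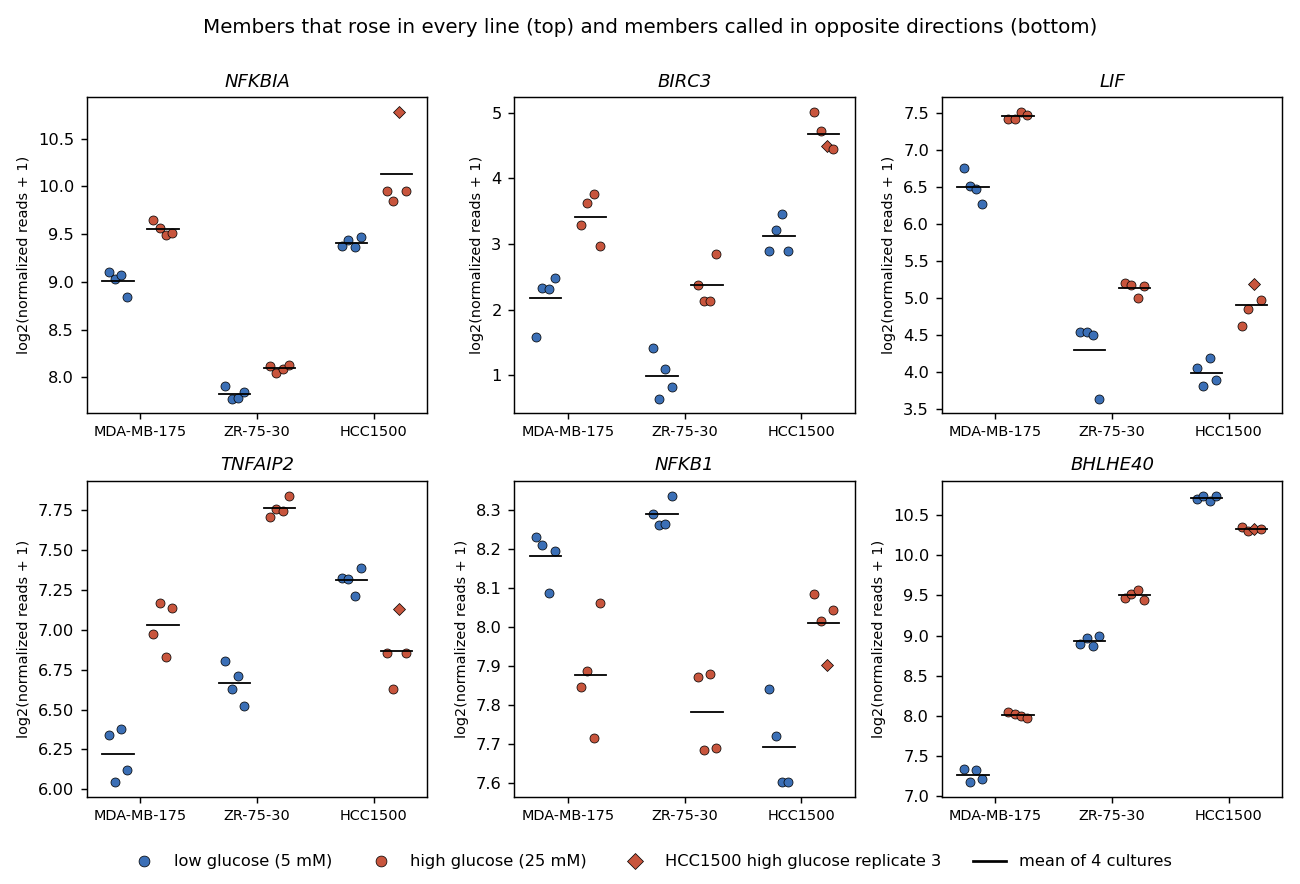
Log2(normalized reads + 1) of NFKBIA, BIRC3 and LIF (top) and of TNFAIP2, NFKB1 and BHLHE40 (bottom) in each sample, with the mean of 4 samples as a bar, at low and high glucose in each line; a diamond marks HCC1500 high glucose replicate 3. The top genes step up from low to high glucose in every line, and the bottom genes step one way in ZR-75-30 and MDA-MB-175, the other way in HCC1500.

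IER3 and DUSP1 showed their largest rises in HCC1500. IER3 encodes an early response protein that modulates survival, and DUSP1 a phosphatase that switches off MAP kinases. IER3 in HCC1500 measured 714, 738, 694 and 696 normalized reads at low glucose and 1578, 1661, 3255 and 1634 at high glucose, with a log2 change of 1.44 (SE 0.22, adjusted p = 0.00247) and log2 change of 1.19 (SE 0.03, adjusted p = 2.96e-15) without replicate 3. DUSP1 in HCC1500 measured 128, 142, 151 and 141 normalized reads at low glucose and 248, 238, 387 and 256 at high glucose, with a log2 change of 0.98 (SE 0.16, adjusted p = 0.00337) and log2 change of 0.81 (SE 0.06, adjusted p = 3.47e-09) without replicate 3. Both genes were separate between conditions, and replicate 3 was the highest sample of each. IER3 rose less in MDA-MB-175, from 370.5 ± 23.5 to 472 ± 42.8 normalized reads with a log2 change of 0.35 (SE 0.07, adjusted p = 0.000922). In ZR-75-30 IER3 went from 642 ± 14.0 to 593 ± 48.7, with a log2 change of -0.12 (SE 0.05, adjusted p = 0.0778) (adjusted p = 0.0298 and 0.0499 without high glucose replicate 1 or 3). DUSP1 rose in ZR-75-30 from 364 ± 12.7 to 455 ± 10.7, with a log2 change of 0.32 (SE 0.05, adjusted p = 1.25e-05), and in MDA-MB-175 its log2 change was 0.02 (adjusted p = 0.838). IER3 shares 525 exon bases with opposite-strand genes.

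KLF6, a zinc finger transcription factor, rose in MDA-MB-175 from 141 ± 13.2 to 209 ± 11.1 normalized reads and in ZR-75-30 from 463 ± 13.8 to 531 ± 13.9, with log2 changes of 0.57 (SE 0.08, adjusted p = 3.59e-05) and 0.20 (SE 0.04, adjusted p = 0.00112). KLF6 in HCC1500 measured 645, 638, 634 and 628 normalized reads at low glucose and 722, 699, 473 and 656 at high glucose, so that replicate 3 was the lowest sample of all, and the log2 change was -0.02 with it (adjusted p = 0.949) and 0.12 without it (adjusted p = 0.00971). SOD2, the mitochondrial superoxide dismutase, was strongly expressed in all lines and passed only in HCC1500 without replicate 3, where it had a log2 change of 0.19 (SE 0.04, adjusted p = 0.000207). EHD1, a protein of endosome recycling, passed in no line, although in ZR-75-30 it had an adjusted p of 0.0499 without low glucose replicate 4. PTGS2, the inducible cyclooxygenase, had no read in ZR-75-30 or MDA-MB-175, and at most 0.497 normalized reads in HCC1500.

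Of 33 members tested in all 3 lines, 3 rose in each (NFKBIA, BIRC3 and LIF) and none fell in each, where 1.81% of all genes tested in the 3 lines rose in each and 3.32% fell in each. Without HCC1500 replicate 3 the number was 7, with RELB, CCL2, CSF1 and KLF6 added, where 3.73% of all genes rose in each and 6.74% fell in each. The genes in question are an inhibitor of the pathway, a survival gene, a subunit, cytokines, a chemokine and a transcription factor. These counts too can follow from the choice of members with earlier results known.

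The test of whether the response to glucose differed between lines was passed by 12 of 41 members (29.3%), the same share as over all genes (29.3%). Without replicate 3 it was 18 of 41 members (43.9%) and 48.6% of all genes. The 3 members called in opposite directions were among them, with adjusted p values of 7.53e-08 for TNFAIP2, 6.43e-06 for NFKB1 and 7.28e-11 for BHLHE40. IER3 (1.56e-05), DUSP1 (0.000119) and F3 (0.00192) followed. KLF6 (0.00471), TNIP1 (0.00563), PLAUR (0.00651), PLAU (0.0246), SOD2 (0.0257) and CXCL1 (0.0404) made up the rest. BIRC3 (0.761), LIF (0.920), CSF1 (0.907) and NFKBIA (0.139) did not pass it, which does not show that their responses were alike, and NFKBIA passed it without replicate 3 (0.00394).

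Receptors, adaptors, kinases, ubiquitin enzymes and further inhibitors of the pathway, here called upstream genes, were followed as a separate list of 41 genes. This list too was chosen with earlier results of these data known. In MDA-MB-175 11 of 39 tested rose and 3 fell, in ZR-75-30 15 of 37 rose and 8 fell, and in HCC1500 3 of 36 rose and 4 fell (10 and 14 of 35 without replicate 3), against the shares of all genes given above for each line. MAP3K8, a kinase that links the NFKB1 precursor to MAP kinase signalling, was the only one to rise in all 3 lines. MAP3K8 went from 75.3 ± 6.10 to 108 ± 7.05 normalized reads in MDA-MB-175 (log2 change 0.51, SE 0.09, adjusted p = 0.00048). It went from 51.8 ± 0.907 to 75.0 ± 9.59 in ZR-75-30 (0.52, SE 0.11, adjusted p = 0.00106) and from 46.2 ± 4.92 to 77.6 ± 12.5 in HCC1500 (0.73, SE 0.15, adjusted p = 0.00957). LTBR, the lymphotoxin receptor that signals to the alternative pathway, joined it when replicate 3 was left out. In MDA-MB-175 LTBR rose from 879.5 ± 66.3 to 1072 ± 13.4 normalized reads, and in ZR-75-30 from 815 ± 35.6 to 1273 ± 65.5. Its HCC1500 means went from 420.1 ± 24.9 to 595 ± 199 (adjusted p = 0.139), and to 497 ± 39.7 without replicate 3 (adjusted p = 0.000844). No upstream gene fell in all 3 lines. IL1R1, an IL-1 receptor, fell in HCC1500 from 2694 to 884 (log2 change -1.62, SE 0.12, adjusted p = 0.000103). It also fell in MDA-MB-175 (-0.20, adjusted p = 0.0133). IKBKB, an IkappaB kinase subunit, fell in HCC1500 from 465 to 287 (-0.70, SE 0.07, adjusted p = 0.000441). It rose in ZR-75-30 (0.15, adjusted p = 0.0232). Both HCC1500 falls were also called without replicate 3. The other falls there were of RIPK1 and AGER. Besides MAP3K8, the rises in HCC1500 were of CHUK and NFKBIB. CHUK, also an IkappaB kinase subunit, went from 234 to 316 (log2 change 0.43, SE 0.10, adjusted p = 0.0153). NFKBIB, an inhibitor, went from 109 to 255 (1.13, SE 0.24, adjusted p = 0.0124, and 0.86 without replicate 3). Both rises were also called without replicate 3, and CHUK fell in ZR-75-30 (-0.16, adjusted p = 0.0314).

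At low glucose the lines differed in many of these genes. The 12 low glucose samples were compared pairwise, with a gene counted as different at an adjusted p under 0.05 and a log2 difference of at least 1, and 39 members were tested. A gene entered with a value of at least 0.5 in 4 of the 12 samples. CXCL1, CXCL3, LTB and TNF entered through their HCC1500 samples, so they could only come out as higher there. MDA-MB-175 was above ZR-75-30 for 12 members and below it for 4 (22.9% and 10.2% of all genes). MDA-MB-175 was above HCC1500 for 5 and below it for 13 (20.6% and 22.1% of all genes). ZR-75-30 was above HCC1500 for 4 and below it for 18 (16.3% and 28.8% of all genes). HCC1500 was above both other lines for 11 members, CXCL1, ICAM1, IL8, CXCL3, LTB, TNF, BHLHE40, REL, CCL2, PLAUR and RELB. MDA-MB-175 was above both for 3, LIF, LAMB3 and CLCF1, and ZR-75-30 for none. The share of all genes above both other lines was not counted. Whether such leads are more common among these members than among all genes is therefore not known.

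CXCL1 had the widest lead. Its low glucose samples held 36.5, 38.8, 38.3 and 36.6 normalized reads in HCC1500, 0, 0, 0.569 and 0 in MDA-MB-175 and 0, 0, 0.57 and 0 in ZR-75-30. On 403 reads against 1, the depth-corrected ratio was 290.0 to MDA-MB-175 (95% interval 51.8 to 11482) and 249 to ZR-75-30 (44.5 to 9877), with counting error only. ICAM1 came next, with 136, 155, 158 and 144 normalized reads in HCC1500, 6.82, 8.04, 5.69 and 7.12 in MDA-MB-175 and 0.554, 0, 0 and 0 in ZR-75-30, so that the 3 lines formed separate steps. IL8 held 48.3, 49.9, 47.9 and 43.5 in HCC1500 and 2.81, 4.02, 0.569 and 2.03 in MDA-MB-175, and no read in ZR-75-30, which makes HCC1500 at least 20.7-fold higher than ZR-75-30 against a floor of 3 reads per library. CXCL3 (6.84, 5.4, 6.9 and 5.6 normalized reads) and LTB (5.32, 5.72, 3.83 and 6.89) had reads at low glucose in HCC1500 only. Against the same floor HCC1500 was at least 3.08-fold and 2.71-fold higher than MDA-MB-175 for these genes, and at least 2.70-fold and 2.38-fold higher than ZR-75-30. TNF was at least 2.57-fold higher than in MDA-MB-175, and 17.0 times the level of ZR-75-30 (95% interval 4.49 to 144, on 55 reads against 2).

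LIF ran the other way, with 107, 90.5, 87.7 and 76.3 normalized reads in MDA-MB-175 against 15.6, 13.0, 17.3 and 13.8 in HCC1500 and 22.2, 22.2, 21.6 and 11.5 in ZR-75-30. ZR-75-30 and HCC1500 overlapped for this gene, and MDA-MB-175 was above both. LAMB3 stepped down from 144, 153, 165 and 124 in MDA-MB-175 to 50.4, 35.8, 42.7 and 43.5 in ZR-75-30, and HCC1500 held 22.0, 22.6, 23.0 and 23.7. CLCF1 averaged 54.4 ± 5.46, 21.1 ± 2.63 and 11.8 ± 5.02 in the same order of lines. BHLHE40 had the reverse order, with means of 1687 ± 38.0 in HCC1500, 487 ± 19.1 in ZR-75-30 and 152 ± 8.91 in MDA-MB-175. Per kb of summed exon length, which allows genes to be compared with each other, SDC4 and IER3 were among the top 3 members in each line at low glucose. SDC4 was first in HCC1500 and MDA-MB-175 with 823 and 554 normalized reads per kb, and IER3 was first in ZR-75-30 with 476 normalized reads per kb. RELA had 103 normalized reads per kb in HCC1500, 101 in ZR-75-30 and 97.3 in MDA-MB-175, and no pair of lines was called different for it.

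**Figure D5:**
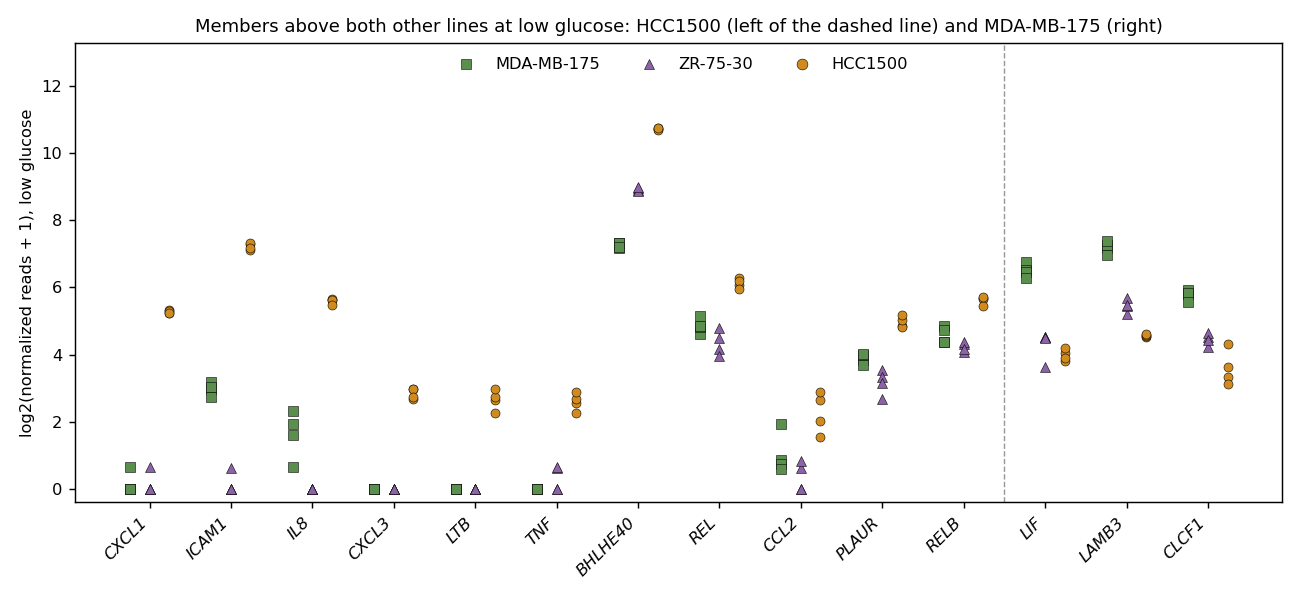
Log2(normalized reads + 1) at low glucose of the 14 members that were above both other lines, 11 in HCC1500 (left of the dashed line) and 3 in MDA-MB-175 (right), with each of the 4 samples of a line as a symbol. CXCL1, CXCL3, LTB and TNF lie near 0 in ZR-75-30 and MDA-MB-175, well below their HCC1500 levels.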

How the data were processed

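The data are RNA-Seq profiles (Illumina HiSeq) of 24 samples. The authors deposited a signal per gene and sample, which is its read count after division by a factor of the sample: 100% of values were whole multiples of the sample's smallest nonzero value, within 0.01 of a read. The values are not CPM, although the study plan here had assumed normalized values of that kind, and the authors' factor is not given in the sources used here. The methods name Trimmomatic, TopHat, hg19 and Ensembl release 70 for other samples of the study, and the submitters' processing notes name edgeR and hg38. Gene locations given with identifiers are GRCh37 (GENCODE release 44 lifted to it) and promoter positions are GRCh38.p14, so the 2 are not interchangeable. Symbols were split over several cells in 9 lines, which were read from the line end.

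The 46 members, their roles and the 41 upstream genes were chosen with earlier results of these data known. Lines were fitted one by one, without covariates, by limma 3.58.1 (R 4.3.3) with its intensity trend, using log2(value + 1). Log2 changes on this scale understate changes of weakly expressed genes. A gene was tested when 4 samples or more reached 0.5. P-values were adjusted by Benjamini-Hochberg over all genes tested, and every adjusted p in the report is from limma at a threshold of 0.05. A fit on all 24 samples gave the F test of differences between lines, and a fit on the 12 low glucose samples gave the pairs of lines. Fits were tested on simulated data. Given in full were TNF, IL8, NFKB1, RELA, NFKBIA and TNFAIP3, the 6 largest rises and falls per line among called members without overlap, members called alike in all lines or in opposite directions, the 5 largest leads per line at low glucose, TXNIP, and upstream genes called alike in all lines. Other members with values, and the upstream genes IL1R1, IKBKB, CHUK, NFKBIB, RIPK1 and AGER, were described after their values were seen.

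Alternatives were other pseudocounts, filters, scalings and variance models, sample weights, removal of a length trend, a replicate block, each sample left out, and edgeR 4.0.16 and DESeq2 1.42.0 on the recovered reads. EdgeR called 4402, 7397 and 3576 genes for MDA-MB-175, then ZR-75-30, then HCC1500. Ratios on few reads have exact 95% intervals for counting error.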

Additional observations from a re-analysis of the deposited data

Results flagged for a closer look

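Only the members given in full, by the rule in the processing section, were screened for a sample far from its group. In 10 of 114 groups of 4 samples with enough signal, 1 sample stood far from the others, where chance gives about 1 in 20 groups. In 7 of the 10 it was HCC1500 high glucose replicate 3, which was the highest for TNF (18.6 normalized reads, others 6.47 to 8.26), NFKBIA (1761, others 922 to 992), RELA (969, others 614 to 649), RELB (135, others 61.7 to 72.6), BCL3 (647, others 316 to 344), IER3 (3255, others 1578 to 1661) and DUSP1 (387, others 238 to 256). The others were RELB in MDA-MB-175 high glucose replicate 3, the lowest at 33.6 (others 37.9 to 38.7), LIF in ZR-75-30 low glucose replicate 4, the lowest at 11.5 (others 21.6 to 22.2), and PLAU in MDA-MB-175 low glucose replicate 2, the lowest at 1.34 (others 3.61 to 4.07). Members outside the screen also stood apart in HCC1500 high glucose replicate 3. REL was far below there (6.68, mean of the others 109) and NFKBIE far above (145, mean of the others 55.7).

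For 8 members the change with glucose differed between lines by the limma F test. The adjusted p values were 7.53e-08 for TNFAIP2, 6.43e-06 for NFKB1, 0.0404 for CXCL1, 1.56e-05 for IER3, 0.000119 for DUSP1, 0.0246 for PLAU, 0.00192 for F3 and 7.28e-11 for BHLHE40. TNIP1, KLF6, PLAUR and SOD2, which also passed that test, are described in the report. The CXCL1 difference set a log2 change of 0.84 in MDA-MB-175, close to the floor of 3 reads, against -0.04 in HCC1500.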

How the results depend on the processing

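Results in MDA-MB-175 and ZR-75-30 were steadier than in HCC1500. Requiring an absolute log2 change of at least 0.5 left 12 called members in ZR-75-30 (19 without that limit). In HCC1500, where 11 members were called, sample weights gave 20, the fit on all 24 samples 18 and the fit without high glucose replicate 3 20; also without that sample, 24 were called with median-of-ratios scaling, an alternative chosen after seeing the data. For members changed alike in all 3 lines (3), median-of-ratios scaling gave 5, sample weights 7, the length trend removed 6, the fit on all 24 samples 5, the fit without HCC1500 replicate 3 7, edgeR 6 and DESeq2 5. For members whose response differed between lines (12), sample weights gave 20. The cause of these differences was not tested. Leaving out 1 sample at a time gave 17 to 19 called members in MDA-MB-175 and in ZR-75-30, 8 to 20 in HCC1500, 2 to 7 alike in all lines, 10 to 18 for the difference between lines, and 14 to 16, 16 to 20 and 19 to 22 for the pairs of lines at low glucose. EdgeR and DESeq2 called 13 and 16 members in HCC1500, 20 and 17 in ZR-75-30 and 20 and 19 in MDA-MB-175. No change of a named member turned its direction under any alternative once called. Over the single-gene alternatives, calls were lost in 26 and gained in 33 for HCC1500, lost in 8 and gained in 11 for ZR-75-30, and lost in 10 and gained in 3 for MDA-MB-175. The other scalings moved the median change of all genes by at most 0.07 on the log2 scale.

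The replicate numbers did not pair the samples: deviations of same-numbered samples had mean correlations of 0.02 for HCC1500, 0.04 for ZR-75-30 and 0.05 for MDA-MB-175, between -0.05 and 0.16 for single pairs. With the replicate number as a block, 8 members were called in HCC1500, 19 in ZR-75-30 and 19 in MDA-MB-175 (for HCC1500 20 without high glucose replicate 3, chosen after seeing the data), 2 were alike in all lines and 11 differed between lines. A level under 3 reads, as for most chemokines in ZR-75-30, could not be told from none.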
